A study of Homo sapiens with 4 samples.

Results

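Ribosome biogenesis and nucleolar genes were followed after knockdown of PLK4, the kinase that starts centriole duplication, in 2 bladder cancer (BC) cell lines. The 54 genes were those of a hand-made list of RNA polymerase I, rRNA processing and subunit assembly genes, with MYC, and all 54 were found once by symbol among the 16126 genes of the 5637 table and the 16175 genes of the MGHU3 table. 5637 and MGHU3 are established lines grown from human bladder carcinomas, wild type by their labels. In each line, cells carrying a lentiviral short hairpin RNA against PLK4 (shPLK4) were compared with cells carrying a negative control hairpin (shNC). The labels give 24 h of treatment, whereas the methods of the study describe a longer infection with puromycin selection. RNA-seq of poly(A) RNA gave 1 library per arm and 4 libraries in all, so no difference has a replicate check, and the hairpin and the target cannot be told apart.

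Ribosomes are assembled in the nucleolus. RNA polymerase I transcribes the long rRNA precursor, small nucleolar RNPs (snoRNPs) guide its chemical modification, and a large set of processing and assembly factors cuts it and builds the small and large subunits around the pieces. MYC is the transcription factor best known for driving these genes, and their output follows the growth of proliferating cells.

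The deposited tables hold comparisons rather than reads. Levels per transcript length and reads were recovered from them where the arithmetic allowed it, which gave levels for 21 of the 54 genes in 5637 and 18 in MGHU3, and reads for 31 and 24. Each log2 fold change sets shPLK4 against shNC and was scaled so that the median gene with at least 100 reads is at 0. This scaling took 0.05 from every log2 value of the 5637 table and 0.02 from those of MGHU3, while the recovered levels are printed before it. Intervals are 95% intervals of counting error only, and the genes with recovered reads had at least 511 reads on average over the libraries of 5637 and 451 over those of MGHU3. PLK4 itself had 45.6% of its shNC level in 5637 (19.44 in shNC and 9.17 in shPLK4) and 38% in MGHU3 (15.15 and 5.84). Of 12 epithelial markers 11 were listed in each line, with 2870 and 2321 reads for EPCAM in shNC and shPLK4 of 5637 and 2252 and 2057 in MGHU3. GATA3 had a log2 value of 0.67 (0.46 to 0.88) in 5637. KRT5 had -1.04 in 5637 and -0.84 in MGHU3, KRT19 -0.71 in 5637 and KRT17 -0.95 in MGHU3, all with a deposited p-value of 0, from which no reads or interval can be recovered. Of 10 markers of other cell types, 7 were listed in 5637 and 4 in MGHU3, and PTPRC, CD3E, PECAM1 and VWF had a mean estimate under 5 reads over both libraries of a line or were not listed, with 8 and 1 reads for PECAM1 in 5637. COL1A1 was listed in both lines at log2 values of 0.04 in 5637 and -0.03 in MGHU3, and its reads were not recovered. CD68, a marker of macrophages, was the one called, higher in MGHU3, from 57 to 98 reads. The part of these markers in the results was not tested, and in bulk RNA fewer cells of a type and less RNA per cell cannot be told apart.

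None of the 54 ribosome biogenesis and nucleolar genes was called, that is, past a fold change of 1.5 in either direction with an interval off 0, in either line. Of all genes tested, those with at least 10 reads, 9.73% were called in 5637 and 5.58% in MGHU3. The share was lower among genes with at least 100 reads. Of 10538 such genes in 5637, 352 were called higher and 422 lower, and of 10588 in MGHU3, 113 higher and 199 lower. The median log2 fold change of the 54 genes was 0.008 in 5637, with values from -0.50 to 0.41, and 0.013 in MGHU3, with values from -0.25 to 0.22. In 5637, 28 genes lay above 0 and 26 below, and in MGHU3 32 and 22. The size of the change, regardless of direction, had a median of 0.091 in 5637 and 0.090 in MGHU3. Genes with at least 100 reads had a median size of 0.164 in 5637 and 0.126 in MGHU3, and all genes tested 0.189 and 0.146. At a fold change of 1.2, a lower limit that was among the alternatives, 2 of the 54 genes were higher in 5637, POLR1A and RRP12, against 13.9% of all genes. Lower at this limit in 5637 were 3 genes, NPM1, FBL and RRP1B, against 13.7% of all genes. In MGHU3 none passed this limit in either direction, where 8.16% of all genes were higher and 9.45% lower. Scaling by library depth left POLR1A, RRP12 and NPM1 past 1.2-fold in 5637 and took out FBL and RRP1B.

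**Figure D1:**
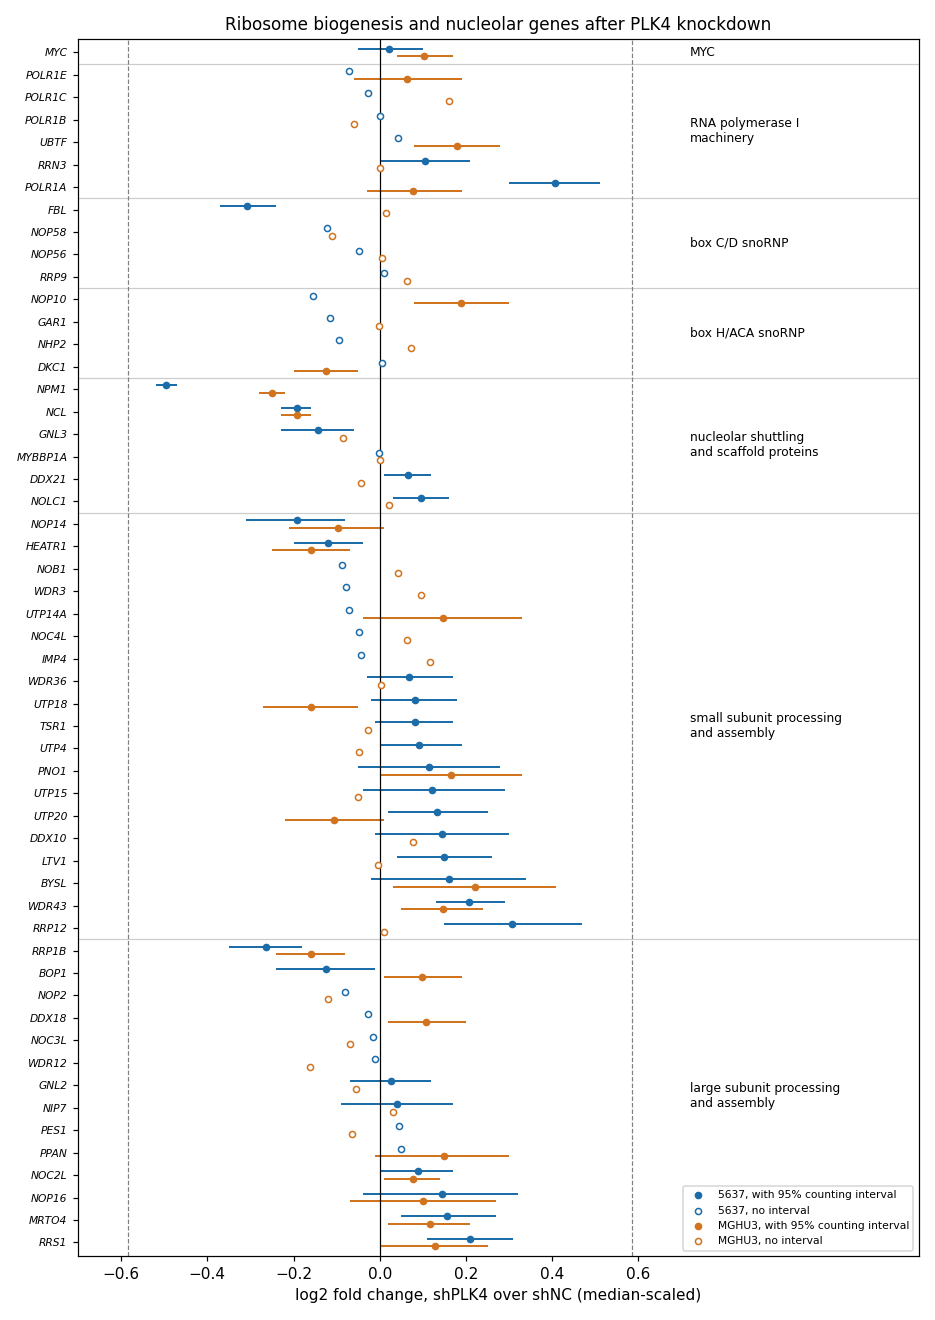
Log2 fold change of each of the 54 genes (rows, grouped by role and ordered by the value in 5637), shPLK4 over shNC, 1 library per arm. Filled points carry a 95% counting interval, open points have none, and dashed lines mark a fold change of 1.5. All points lie between the dashed lines, and NPM1 at -0.50 and POLR1A at 0.41, both in 5637, lie farthest from 0.

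MYC mRNA was near its control level in both lines. In 5637 the level of MYC was 81.16 in shNC and 85.24 in shPLK4, from 3058 and 2909 reads, and the log2 fold change was 0.02 with an interval from -0.05 to 0.10. In MGHU3 it was 102.74 and 111.94, from 3685 and 3922 reads, a log2 fold change of 0.10 (0.04 to 0.17). MYC thus lay close to the median gene in 5637 and slightly above it in MGHU3, and the interval of the difference between the lines ran from -0.18 to 0.02. Around it, 11 of 12 genes of the MYC network (the partner MAX, its other partners and their relatives) were listed. In 5637, 3 of the 11 were called, against 9.73% of all genes tested. All 3 were lower: MLXIPL at -1.39 (25 and 9 reads), MXD3 at -0.83 (175 and 92 reads) and MYCL at -0.80 (109 and 59 reads). MXD3 encodes a MAX partner that represses transcription, and MYCL is a MYC family member. Of the 11 genes, 7 lay below 0 in 5637 and 4 above. Among the latter were MXD1 at 0.40 (0.05 to 0.75), MNT at 0.34 (0.10 to 0.57) and MLXIP at 0.34 (0.24 to 0.44). None of the 11 was called in MGHU3, against 5.58% of all genes tested. There MXD3 had a log2 value of 0.17 (-0.06 to 0.40) and MAX 0.30 (0.17 to 0.43). The median of the 11 was -0.10 in 5637 and 0.08 in MGHU3.

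The letters CACGTG, the E-box that MYC binds with MAX, were looked for in RefSeq promoters (GRCh38.p14, 250 bases before to 50 after the annotated start). Only the first listed promoter of each gene was searched, so any other start of a gene was left out. Promoters were matched for 45 of the 54 genes. The motif reads the same on both strands. It stood in 19 of the 45 (42.2%) and in 7.43% of all 27305 promoters, which were not limited to genes expressed in these lines. The median log2 value of genes with the letters was 0.03 in 5637 and 0.00 in MGHU3, and that of the 26 genes without them was 0.00 in both lines. A match of letters is a description of the window and not a binding site. For 4 genes whose values went in different directions in 5637, 30 bases around the E-box are given 5′ to 3′ on the strand of the gene, with the E-box in capitals:
WDR43 (chr2:28894658-28894687, plus strand): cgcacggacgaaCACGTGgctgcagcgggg
BYSL (chr6:41921515-41921544, plus strand): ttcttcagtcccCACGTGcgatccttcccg
NOP14 (chr4:2963374-2963403, minus strand): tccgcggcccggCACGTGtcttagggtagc
FBL (chr19:39846356-39846385, minus strand): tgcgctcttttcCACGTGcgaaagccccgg
The E-box began 4 bases into the annotated transcript of WDR43 and 7 bases into that of FBL, 29 into that of BYSL and 16 into that of NOP14. In 5637, WDR43 had a log2 value of 0.21 and BYSL 0.16, against -0.19 for NOP14 and -0.31 for FBL.

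Among the RNA polymerase I genes, POLR1A had the highest value of all 54 genes in 5637. POLR1A encodes the largest subunit of the enzyme, and its level in 5637 was 5.96 in shNC and 8.17 in shPLK4, from 1247 and 1548 reads, a log2 fold change of 0.41 (0.30 to 0.51). In MGHU3 the levels were 6.71 and 7.18, from 1347 and 1408 reads, a log2 fold change of 0.08 (-0.03 to 0.19). The difference between the lines was 0.33, with a counting interval from 0.18 to 0.48. POLR1B, the second-largest subunit, had a log2 value of -0.00 in 5637 and had -0.06 in MGHU3. POLR1C, shared with RNA polymerase III, had -0.03 in 5637 and 0.16 in MGHU3, and POLR1E, the lowest of these genes in 5637, had -0.07 there and 0.06 in MGHU3. UBTF encodes the factor that holds rDNA in an open state, and its log2 value was 0.04 in 5637 and 0.18 (0.08 to 0.28) in MGHU3, where its level was 21.83 in shNC and 25.08 in shPLK4. RRN3, which recruits the polymerase to the promoter, had 0.11 (0.00 to 0.21) in 5637 and 0.00 in MGHU3. The median of the 6 genes was 0.02 in 5637 and 0.07 in MGHU3.

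The box C/D snoRNP carries out 2′-O-methylation of rRNA, with FBL (fibrillarin) as its methyltransferase. FBL had 4311 reads in the shNC library of 5637 and 3264 in the shPLK4 library, a log2 fold change of -0.31 (-0.37 to -0.24). The value in MGHU3 was 0.02, with no interval, so that FBL lay below the median gene in 5637 and at it in MGHU3. Its partners did not share the size of this value: NOP56 had -0.05 in 5637 and 0.00 in MGHU3, and NOP58 had -0.12 and -0.11. RRP9, the U3-specific member, had 0.01 in 5637 and 0.06 in MGHU3. The box H/ACA snoRNP converts uridines of rRNA to pseudouridine. DKC1 (dyskerin), its enzyme, had the highest value of the 4 in 5637 at 0.01 and in MGHU3 went from 2787 to 2534 reads, a log2 fold change of -0.12 (-0.20 to -0.05). NOP10, the smallest core protein and the lowest of the 4 in 5637, had -0.16 there and 0.19 (0.08 to 0.30) in MGHU3, from 1166 and 1317 reads. The other two core proteins had -0.09 in 5637 and 0.07 in MGHU3 for NHP2, and -0.12 and -0.00 for GAR1. In 5637, 3 of 4 genes of each snoRNP were below 0, with medians of -0.09 for box C/D and -0.10 for box H/ACA, and in MGHU3 the medians were 0.01 and 0.04.

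NPM1 (nucleophosmin), the abundant shuttling protein of the nucleolus, had the lowest value of all 54 genes in both lines. In 5637 it had 28558 reads in shNC and 18968 in shPLK4, a log2 fold change of -0.50 (-0.52 to -0.47), which is 70.9% of the control level. In MGHU3 it had 23876 and 19897 reads, a log2 fold change of -0.25 (-0.28 to -0.22), or 84.1% of the control level. Of all genes tested, 8.19% had a lower value than NPM1 in 5637 and 15% in MGHU3. GENCODE release 29 names 45 pseudogenes of NPM1, so that reads of this gene may have been shared among copies. NCL (nucleolin), which binds pre-rRNA, had 15406 and 12630 reads in 5637 and 13922 and 12070 in MGHU3. Its log2 fold change was -0.19 (-0.23 to -0.16) in each line. GNL3 (nucleostemin), a GTP-binding protein of the nucleolus, had a level of 84.62 in shNC and 79.21 in shPLK4 of 5637, a log2 fold change of -0.14 (-0.23 to -0.06), and -0.08 in MGHU3. Slightly above the median gene in 5637 were NOLC1, with a log2 value of 0.10 (0.03 to 0.16), and the RNA helicase DDX21, with 0.07 (0.01 to 0.12). NOLC1 had 0.02 and DDX21 -0.04 in MGHU3, and MYBBP1A had 0.00 in MGHU3 and -0.00 in 5637. The median of these 6 nucleolar genes was -0.07 in 5637 and -0.06 in MGHU3.

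mRNAs of ribosomal proteins begin with a C followed by a run of pyrimidines (the 5′ TOP motif), which ties their translation to growth signals. A start with C, followed by C or T at each of the next 4 bases, was found on the coding strand in 5 of the 45 matched promoters (11.1%), in 4.04% of all promoters, and in 43 of 63 matched ribosomal protein promoters (68.3%). With the same pattern searched in the window from 5 bases before to 10 after the start, it stood in 9 of the 45 (20%) and in 21.1% of all promoters, so that the higher share holds for the exact annotated start alone. The 5 genes with the exact start were NPM1, FBL, DDX21, NOB1 and UTP14A, with a median log2 fold change of -0.09 in 5637 and 0.01 in MGHU3, against 0.03 and 0.00 for the 40 other genes. The starts of the genes with the lowest values in 5637 and of DDX21, which had a value above 0 there, are shown with 8 bases before the start and 22 from it, and with the pyrimidine run in capitals:
NPM1 (chr5:171387841-171387870, plus strand): cctgcgtcCTTTCCCTggtgtgattccgtc
FBL (chr19:39846358-39846387, minus strand): cctgcgctCTTTTCCacgtgcgaaagcccc
DDX21 (chr10:68956162-68956191, plus strand): ggaactacCTCTTCCTCTCCacgcggttga
The run held 8 bases in NPM1, 7 in FBL and 12 in DDX21. In 5637 the log2 values of these genes were -0.50, -0.31 and 0.07, so that the gene with the longest run had the highest of the values.

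The 19 genes of small subunit processing and assembly had a median of 0.08 in 5637 and 0.01 in MGHU3. RRP12, an export factor of pre-ribosomes, was the highest of them in 5637, with a level of 8.27 in shNC and 10.58 in shPLK4, from 594 and 688 reads, and a log2 fold change of 0.31 (0.15 to 0.47). Its value in MGHU3 was 0.01, with no interval. NOP14, a core factor of the small subunit processome, was the lowest in 5637. Its level was 24.45 in shNC and 22.13 in shPLK4 of 5637, a log2 fold change of -0.19 (-0.31 to -0.08), and 25.09 and 23.80 in MGHU3, a log2 fold change of -0.10 (-0.21 to 0.01). Other members of this group are named here after their values were seen. HEATR1 (UTP10), also of the processome, had -0.12 (-0.20 to -0.04) in 5637 and -0.16 (-0.25 to -0.07) in MGHU3. WDR43, which joins early processing to RNA polymerase I, had levels of 43.42 in shNC and 51.82 in shPLK4 of 5637, a log2 fold change of 0.21 (0.13 to 0.29), and had 0.15 (0.05 to 0.24) in MGHU3. BYSL (bystin) had 0.16 (-0.02 to 0.34) in 5637 and 0.22 (0.03 to 0.41) in MGHU3, the highest of the 54 genes in that line.

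The processome genes UTP18 and UTP20 lay on different sides of 0 in the 2 lines. UTP18 had 1517 and 1504 reads in 5637, a log2 fold change of 0.08 (-0.02 to 0.18), and 1298 and 1151 reads in MGHU3, a log2 fold change of -0.16 (-0.27 to -0.05). UTP20 had 0.13 (0.02 to 0.25) in 5637 and -0.11 (-0.22 to 0.01) in MGHU3. In each case the difference between the lines was 0.24, with a counting interval from 0.09 to 0.40 for UTP18 and from 0.08 to 0.40 for UTP20. The other 12 genes of this group, WDR3, WDR36, UTP4, UTP14A, UTP15, IMP4, NOC4L, PNO1, NOB1, LTV1, TSR1 and DDX10, had log2 values from -0.09 to 0.15 in 5637 and from -0.05 to 0.17 in MGHU3. LTV1, a cytoplasmic assembly factor of the small subunit, had the highest of these in 5637, 0.15 (0.04 to 0.26).

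The 14 genes of large subunit processing and assembly had a median of 0.03 in 5637 and 0.05 in MGHU3. RRP1B, the lowest of them in 5637, had a level of 32.61 in shNC and 28.10 in shPLK4, from 2642 and 2062 reads, a log2 fold change of -0.26 (-0.35 to -0.18). In MGHU3 its level was 32.35 and 29.37, from 2492 and 2210 reads, a log2 fold change of -0.16 (-0.24 to -0.08). RRS1, which helps bring the 5S RNP into the large subunit, was the highest in 5637, with 54.59 in shNC and 65.31 in shPLK4 and a log2 fold change of 0.21 (0.11 to 0.31). In MGHU3 RRS1 had levels of 36.21 and 40.14 and a log2 fold change of 0.13 (0.00 to 0.25). BOP1, PES1 and WDR12 form the PeBoW complex of rRNA processing. BOP1 had -0.13 (-0.24 to -0.01) in 5637 and 0.10 (0.01 to 0.19) in MGHU3, whereas PES1 had 0.05 and -0.06, and WDR12 had -0.01 and -0.16. The values of this complex had no common sign in either line, but those of PES1 and WDR12 had no interval. The other 9 genes, NOP2, NOP16, NIP7, NOC2L, NOC3L, GNL2, DDX18, MRTO4 and PPAN, had values from -0.08 to 0.16 in 5637 and from -0.12 to 0.15 in MGHU3. MRTO4 and NOC2L had intervals above 0 in both lines, and reads of PPAN cannot be told from those of the read-through gene PPAN-P2RY11, which shares its exons.

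**Figure D2:**
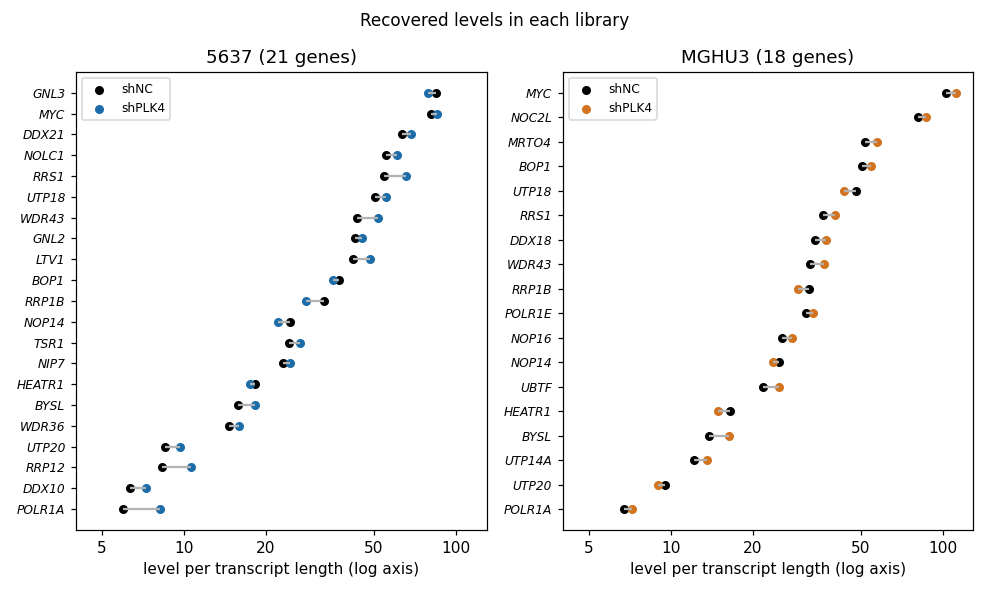
Recovered levels per transcript length (log axis, before scaling by the median gene) in the shNC library (black) and the shPLK4 library (colour), for the 21 genes of 5637 and the 18 of MGHU3 whose levels could be settled, 1 library per point. Levels ran from 5.96 (POLR1A) to 84.62 (GNL3) in shNC cells of 5637 and from 6.71 (POLR1A) to 102.74 (MYC) in those of MGHU3, and the points of a gene lie close together.

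Across the lines, 12 of the 54 genes were below 0 in both, 18 above 0 in both and 24 of opposite sign. Among the 12606 genes tested in both lines, 32.3% were below 0 in both and 32.3% above 0 in both, against 22.2% and 33.3% of the 54 genes. Scaling by library depth left 8 genes below 0 in both. Both lines gave an interval for 17 of the 54 genes. Of these, HEATR1, NCL, NPM1 and RRP1B had intervals below 0 in both lines, MRTO4, NOC2L, RRS1 and WDR43 had intervals above 0 in both, and BOP1 had intervals on opposite sides. The matching share over all genes was not counted, so these counts stand without a background. In 5637, 11 of the 54 had intervals above 0 and 8 below, against 3021 and 2550 of 13019 genes tested. In MGHU3 the counts were 11 and 6, against 2372 and 2349 of 13093. Across the 54 genes the correlation of the log2 values was 0.40 by Pearson's r and 0.32 by Spearman's rho, and 0.29 by Pearson's r over the 53 genes without NPM1. Over the 12606 genes Pearson's r was 0.44. These are descriptions across genes, which are not replicates, and the points share the libraries of each line.

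**Figure D3:**
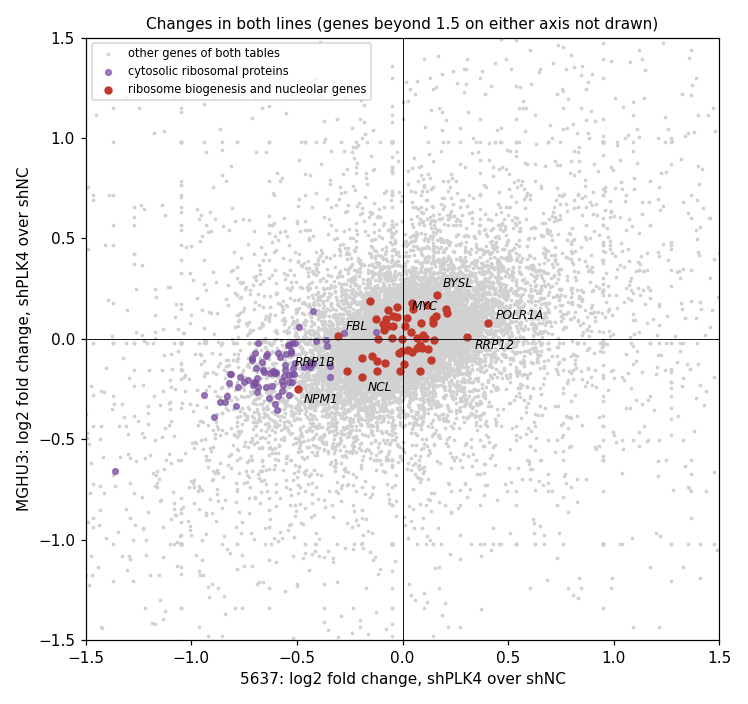
Log2 fold change in 5637 (x axis) against that in MGHU3 (y axis), shPLK4 over shNC, for the 54 genes (red), cytosolic ribosomal proteins (purple) and other genes of both tables (grey), 1 library per arm. The 54 genes lie around the origin with NPM1 toward the lower left, where most ribosomal proteins lie.

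The products that these factors assemble differed from them in value. Of 79 cytosolic ribosomal protein genes, 42 were called lower in 5637 and 1 in MGHU3, with medians of -0.59 and -0.17. No ribosomal protein gene was above 0 in 5637, and NPM1 at -0.50 was the nearest of the 54 genes to their median. Of a further list of 110 ribosome biogenesis symbols, written in the same way and holding no member of the 54, 105 were listed. In 5637, 2 of the 105 were called, both lower, and in MGHU3 none, against 9.73% and 5.58% of all genes tested. NOP53, an assembly factor of the large subunit, had a level of 100.07 in shNC and 60.27 in shPLK4 of 5637, a log2 fold change of -0.78 (-0.88 to -0.68). SENP3, a SUMO protease of the nucleolus, had levels of 24.34 and 15.42 and a log2 fold change of -0.71 (-0.86 to -0.55). The median of the 105 genes was -0.04 in 5637 and -0.02 in MGHU3, close to that of all genes. The size of their change, regardless of direction, had a median of 0.082 in MGHU3, under the 0.090 of the 54 genes. In 5637 it was slightly above the 0.091 of the 54 genes, so small changes were not particular to the 54. The differences between these lists were not tested.

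**Figure D4:**
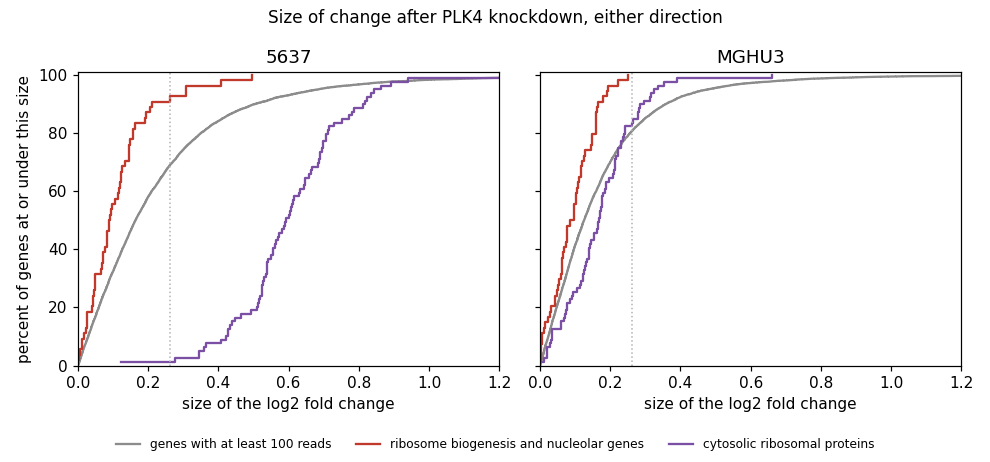
Percent of genes (y axis) whose log2 fold change, in either direction, is at or under the size on the x axis, for the 54 genes (red), 79 cytosolic ribosomal proteins (purple) and genes with at least 100 reads (grey, 10538 in 5637 and 10588 in MGHU3). The dotted line marks a fold change of 1.2. Of the curves drawn, the red one rises first in both lines, with a median size of 0.091 in 5637 and 0.090 in MGHU3. The 105 other ribosome biogenesis genes are not drawn, and their median size in MGHU3 was smaller, 0.082.

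The 54 genes lie on 19 chromosomes of GRCh38, and by GENCODE release 29 their introns or exons hold 28 snoRNA genes in 9 host genes, namely NOP56, GNL3, NOP58, NCL, WDR43, DKC1, TSR1, PPAN and POLR1C. snoRNAs are cut from the introns of such genes. The median log2 fold change of the 9 hosts was -0.03 in each line and that of the 45 other genes 0.02. In each line 5 of the 9 hosts were below 0, against 21 of the 45 others in 5637 and 17 in MGHU3. The genes that leave the median most differ in position: NPM1 lies on chromosome 5 from 171387116 to 171411137 on the plus strand, POLR1A on chromosome 2 from 86020216 to 86106155 on the minus strand, and FBL on chromosome 19 from 39834458 to 39846414 on the minus strand. None of these 3 genes overlaps an exon of another gene on either strand. Of the 54 genes, 24 overlap an exon of a gene on the other strand, RRP12, NOP14 and HEATR1 among them, and 5 overlap one on the same strand. Reads of overlapping exons on opposite strands cannot be told apart without strand, and strand would not separate those on the same strand.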

How the data were processed

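Poly(A) RNA of 4 libraries was sequenced by the authors, and 1 table of comparisons per line was deposited. The submitters' processing notes name HISAT2 2.0.4, Bowtie2 2.2.5, RSEM 1.2.12, DESeq2 1.4.5 and the build GRCh38. The deposited log2 ratios are of shPLK4 over shNC, made by the authors from scaled expression values, and the deposited p-values come from the authors' Poisson comparison of 2 libraries. The ratios and p-values served here as input. Log2 values are printed after the median scaling, except those given under depth scaling, which is the scaling of the deposited ratios. Of the deposited p-values only those of 0 are mentioned, and no deposited false discovery rate is printed. The 99846 circular RNA rows of MGHU3 were dropped, whereas 5637 had 0 such rows, so the 2 tables differ in what they list. The number of per-sample columns left unused was 0.

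Each ratio was reduced to the simplest pair of whole numbers that gives its 9 decimals. This held below 12000 for 97.0% of genes in 5637 and 97.2% in MGHU3, as ratios of values with 2 decimals would, and for 2.9% and 3.3% of the same ratios after a random shift. The p-value shared by genes with 1 read gave the depth ratio of the libraries, 0.906 in 5637 and 0.977 in MGHU3. Ratio and p-value together gave reads (printed where p was under 0.05, or where the level was settled with p under 0.25), and reads per length of the longest coding transcript settled the common factor of the pair, from 1 to 4. This factor was 4 for MYC in 5637, the largest allowed, and 2 in MGHU3, so these levels depend on the length used. The unit of the levels is not named in the sources used here. Library totals are unknown, and precision is limited by counting error, which intervals cover, and by 1 library per arm, which they do not. Since intervals exist mostly where values left 0, their counts are no share of all genes. Other reads are estimates, unreliable for ratios near 1, and served the limits on reads. Genes with a deposited p-value of 0 (36 in 5637 and 8 in MGHU3) have no recovered reads and were counted as having an interval off 0.

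Genes were called past a fold change of 1.5 with a 95% interval of log2 without 0. Named were MYC, PLK4, in each role the called genes or else the lowest and highest in 5637, genes with opposite intervals, and up to 5 called genes of each further list and line, and others after their values were seen. Members and lists were chosen with earlier results of these data known. Alternatives were other fold limits, no interval, other read limits, depth scaling, the list without MYC, and, added after the data were seen, a fit over both lines (limma 3.58.1). Steps were tested on simulated data. Python 3.11.15, numpy 2.4.6, pandas 2.3.3, scipy 1.17.1 and matplotlib 3.10.9 were used.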

Additional observations from a re-analysis of the deposited data

Results flagged for a closer look

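BOP1, a factor of large subunit processing, was the only one of the 17 genes with intervals in both lines whose intervals lay on opposite sides of 0. Its level was 37.29 in shNC and 35.36 in shPLK4 of 5637 and 50.46 and 54.77 in MGHU3. The log2 fold change in 5637 minus that in MGHU3 was -0.22, with a counting interval from -0.37 to -0.08, and this difference was not tested, since each arm holds 1 library. When the libraries were scaled by depth, BOP1 had -0.08 (-0.19 to 0.04) in 5637 and 0.12 (0.03 to 0.21) in MGHU3, so that the interval of 5637 then held 0. Genes lacking an interval in either line could not be flagged in this way. With median scaling, other genes differed more between the lines, among them NOP10 (-0.35), POLR1A (0.33), FBL (-0.32) and RRP12 (0.30).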

How the results depend on the processing

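Of 21 alternatives over 5 results, 18 left the result within 1.5 times its value, though several of these could not have moved it. The number of the 54 genes called was 0 in 5637 and 0 in MGHU3 with a fold limit of 2, with depth scaling, without the interval, without a minimum of reads and with a minimum of 100 reads. A count of 0 cannot fall under a stricter limit. No gene was past 1.5-fold even without the interval, so the read limits could not add any. A fold limit of 1.2 gave 5 genes in 5637 and 0 in MGHU3, by the construction of that limit. The median log2 fold change ran from 0.006 (without MYC) to 0.057 (depth scaling) in 5637 and from 0.011 to 0.033 in MGHU3. Depth scaling gave the 0.057 and the 0.033, since it adds the same amount to every gene of a line. The number of genes below 0 in both lines was 12, and 8 with depth scaling, a change that lies at the limit of 1.5 times. With depth scaling and the limit of 1.2 together, a combination added after the data were seen, 3 genes of 5637 passed instead of 5, and with depth scaling 20 intervals of 5637 lay above 0 instead of 11. No paired analysis was possible because, within a line, each arm holds 1 library, which also left no replicate to leave out. Taking the 2 lines as pairs, with line as a block (limma, added after the data were seen), 0 of 12606 genes and 0 of the 54 had an adjusted p under 0.05. At an unadjusted p under 0.05 there were 1897 genes, and of the 54 only NPM1, with a mean log2 fold change of -0.37, lower in both lines (limma adjusted p = 0.302). This fit has 1 residual degree of freedom for each gene, and 2 lines are not replicate cultures. Depth limits the genes with few reads: of the 54, BYSL with 419 and 484 reads in MGHU3 had an interval from 0.03 to 0.41.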
